A study of Mus musculus with 4 samples.

Results

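The mouse counterpart of the Prader-Willi and Angelman region lies on chromosome 7 and holds Ube3a, Snrpn, Ndn, Magel2 and Mkrn3 together with arrays of small nucleolar RNAs (snoRNAs) and the Mir344 family of microRNA precursors. Its members were taken as all rows of the deposited array table whose cluster starts inside a fixed window of chromosome 7, on both strands, and rows that share all 4 signals were counted once. This gave 93 of the 33793 rows and 62 distinct clusters, reaching from chr7:59228750 to chr7:62476617. A cluster groups the probes designed against 1 transcribed stretch. Of the 93 rows, 49 have exactly the start and end of a RefSeq gene of GRCm38.p6, so the coordinates are read as GRCm38. Whole brains of 129SV adult females were measured, 2 wild-type and 2 Adar2-/- samples, on Affymetrix whole-transcript arrays. Per the study's methods, both genotypes also carry the pre-edited Gria2 R/R allele, which keeps mice without ADAR2 alive, so the wild-type mice are wild type for Adar2 only. The Adar2-/- mice lack ADAR2, the product of Adarb1, which deaminates adenosine to inosine where RNA is double-stranded. The labels number the samples within a genotype but do not say whether they are separate animals, so the p-values measure the spread between these arrays, which may be partly technical.

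Genomic imprinting silences one parental copy of a gene. In this region Snrpn, Ndn, Magel2, Mkrn3 and Peg12 are expressed from the paternal chromosome, and a long paternal transcript continues from Snrpn through the snoRNA arrays into the antisense strand of Ube3a. Ube3a, a ubiquitin ligase, is expressed in neurons from the maternal copy. In humans, loss of the paternal transcripts is the cause of Prader-Willi syndrome and loss of maternal UBE3A in the brain that of Angelman syndrome. C/D box snoRNAs such as Snord116 are cut from introns of the long transcript and bind fibrillarin, Nop56 and Nop58. The neighbouring Snord115 array carries a stretch complementary to the serotonin receptor mRNA Htr2c, which is itself an editing substrate. The arrays do not separate the parental copies.

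Of the 62 distinct clusters, 56 lie on the minus strand and 6 on the plus strand. By symbol, description and length they fall into 9 of the Snord116 array (38 rows), 6 of an array of 79-base snoRNAs (7 rows), 5 other snoRNAs, 10 long non-coding RNAs, 19 microRNA precursors (20 rows), 5 protein-coding genes, 1 cluster over Ube3a and 7 others. No row names Ube3a or Snord115. The file marks 36 of the 62 clusters as able to cross-hybridize, among them all 9 of the Snord116 array and all 6 of the 79-base array.

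The microRNA precursors are the most numerous class of distinct clusters, and some hairpins of the Mir344 family share long stretches of sequence. The sequences of the probes were not examined. RefSeq places 13 Mir344 hairpins in the region, of which 12 are named by a row. Mir344h-1 and Mir344h-2 share 1 profile, which leaves 11 distinct clusters, and 9 of these have the same start and end as the hairpin. The hairpins of Mir344d-1, Mir344d-2 and Mir344d-3 are shown because one of them differed between the genotypes. Capitals mark the mature miR-344d-3p, which is the same in the 3 hairpins (RefSeq, GRCm38.p6, minus strand, 5′ to 3′):
Mir344d-1, chr7:61683124-61683192: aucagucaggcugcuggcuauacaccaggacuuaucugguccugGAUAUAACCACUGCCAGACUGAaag
Mir344d-2, chr7:61685272-61685351: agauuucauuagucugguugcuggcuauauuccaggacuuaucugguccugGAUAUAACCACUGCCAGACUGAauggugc
Mir344d-3, chr7:61726249-61726328: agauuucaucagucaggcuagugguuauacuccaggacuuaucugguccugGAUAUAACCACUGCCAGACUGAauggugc
Mir344d-2 and Mir344d-3 are each 80 bases long, differ at 7 positions and share a run of 50 bases. Mir344d-1 shares a run of 43 bases with either of them. The seed, bases 2 to 8 of a mature miRNA, largely sets which transcripts it pairs with, and it is in capitals in the mature sequences below, which are the 3p arms of family members with a cluster and the 5p arms of the 3 hairpins above:
miR-344d-3p: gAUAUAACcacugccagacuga
miR-344e-3p: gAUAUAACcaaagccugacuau
miR-344h-3p: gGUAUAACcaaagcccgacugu
miR-344b-3p: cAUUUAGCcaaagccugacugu
miR-344-3p: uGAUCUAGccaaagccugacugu
miR-344c-3p: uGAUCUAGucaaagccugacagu
miR-344f-3p: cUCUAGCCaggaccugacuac
miR-344d-1-5p: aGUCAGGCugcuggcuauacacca
miR-344d-2-5p: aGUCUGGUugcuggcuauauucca
miR-344d-3-5p: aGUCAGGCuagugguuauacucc
The 19 mature names of the region hold 11 seeds. miR-344d-3p and miR-344e-3p share AUAUAAC, miR-344-3p and miR-344c-3p share GAUCUAG, and 6 of the 5p arms share GUCAGGC, among them those of Mir344d-1 and Mir344d-3. The 5p arm of Mir344d-2 has the seed GUCUGGU, which no other member has. The array measured total RNA over these precursor spans and did not measure mature miRNAs as such.

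Adarb1 itself, on chromosome 10, had log2 signals of 10.50 and 10.45 in wild type and 9.16 and 8.96 in Adar2-/-. The log2 fold change, Adar2-/- minus wild type, was -1.42 (SE 0.12), and limma gave the lowest p of the table to this cluster (adjusted p = 0.409). Whether its probes lie in the deleted part is not given in the sources used here. Neuronal genes such as Snap25 and Syt1 read between 10.8 and 13.2 on all arrays, as whole brain should. Hypothalamic marker genes, for a part of the brain in which several genes of the region are abundant, passed an unadjusted limma p below 0.05, the threshold for a call here and one that 5.95% of all clusters passed, in 1 of 14 clusters, with a median log2 fold change of 0.02. That cluster, Pomc, is also a pituitary gene. The pituitary genes Prl and Gh were 4.12 and 3.17 higher in Adar2-/- (log2), 3 of 11 clusters of the pituitary list passed p below 0.05, and the list's mean log2 signal was 5.34 and 5.08 in wild type against 6.12 and 5.88 in Adar2-/-. Of the salivary list, Bpifa2 read 12.61 on Adar2-/- array 1 and 5.09 to 5.28 on the other arrays. The olfactory bulb gene Cdhr1 was lowest on Adar2-/- array 2, at 6.66 against 7.44 to 7.87. In the oligodendrocyte and red cell lists, 1 of 3 clusters each passed, Mog at -0.35 and Alas2 at -0.74 (log2 fold change). The part of these tissue differences in the results on chromosome 7 was not tested. In bulk tissue, fewer cells of a type and less RNA per cell cannot be told apart.

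In the comparison of Adar2-/- with wild-type brain, few clusters of the region were called. At an unadjusted limma p below 0.05, 4 of the 62 distinct clusters were called, or 6.45%, beside 5.95% of all 33793 clusters, so the share in the region is near that of the whole table. 2 were higher in Adar2-/- (background 3.64%), the pseudogene Gm7367 and the precursor Mir344d-2. 2 were lower (background 2.31%), and both, Gm26096 and Gm25934, belong to the 79-base snoRNA array, though 3 of the 4 arrays of Gm25934 read no higher than Y-linked genes, which females lack. After Benjamini-Hochberg adjustment over all clusters, limma called 0 in the region and 0 (0%) in the table, and the lowest adjusted p in the region was 0.770. The groups did not overlap in 13 of 62 clusters, 9 with Adar2-/- above and 4 below. That is 21.0%, beside 34.1% of all clusters (17.7% with Adar2-/- above and 16.5% below). The median log2 fold change over the 62 clusters was 0.02, and over all clusters it was 0.01. Regardless of sign, its median size was 0.145 in the region and 0.1 over all clusters. The median distance between arrays within a genotype was 0.20 in wild type and 0.255 in Adar2-/- for the region. Over all clusters it was 0.13 in both. With 2 arrays against 2, an exact permutation test of a single cluster cannot give a two-sided p below 0.333.

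**Figure D1:**
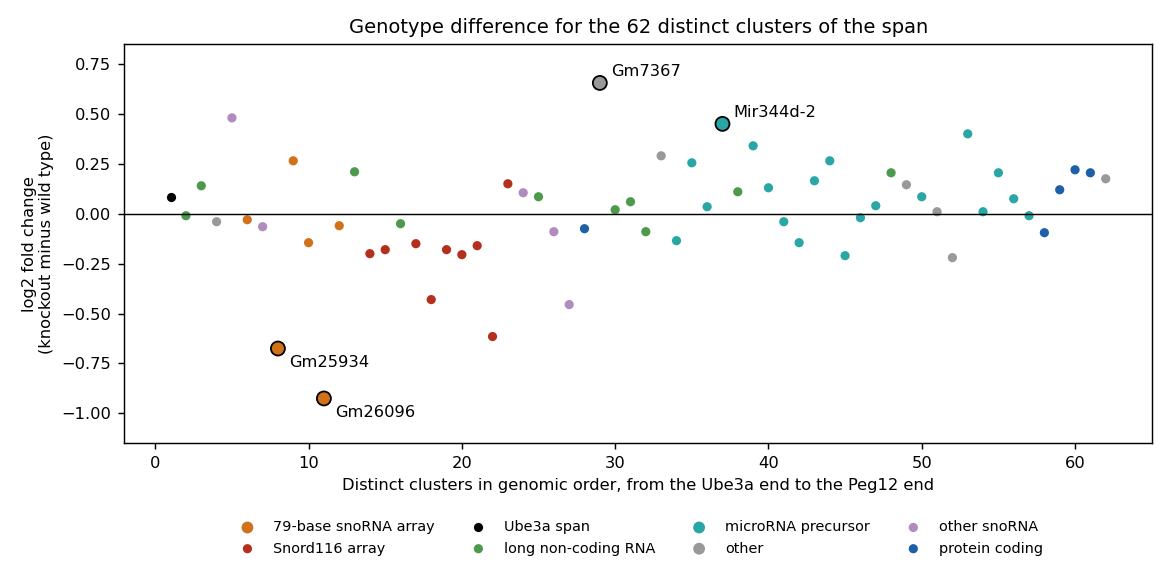
Each point is 1 of the 62 distinct clusters, placed by rank along the chromosome (x axis) at its log2 fold change, Adar2-/- minus wild type (y axis), and coloured by class. Larger outlined points are the 4 clusters with an unadjusted limma p below 0.05, which run from -0.93 (Gm26096) to 0.66 (Gm7367), while 8 of the 9 red points of the Snord116 array lie below 0.

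In the Snord116 array, 8 of 9 clusters had a log2 fold change below 0, and 0 of 9 passed the test. Snord116l9 passed it with lower values in Adar2-/- under median centring and under quantile normalization, and Gm23862 without Adar2-/- array 1. The median over the 9 clusters was -0.18. The arrays of 1 genotype were further apart than the genotypes, with a median distance of 0.20 in wild type and 0.42 in Adar2-/-. Snord116 is the C/D box snoRNA whose loss is most closely tied to Prader-Willi syndrome, and 26 of the 38 rows are 94 bases long and 12 are 90.
16 rows share a profile that begins with the copy at chr7:59675988-59676081, with log2 signals of 12.77 and 12.97 in wild type and 12.82 and 12.56 in Adar2-/-. Their log2 fold change was -0.18 (SE 0.14, 95% interval -0.52 to 0.16, adjusted p = 0.878). Wild type 2 was the highest array and Adar2-/- 2 the lowest, and the groups overlapped. 15 further rows share a profile of 12.93 and 13.12 against 12.97 and 12.72, in the same order of arrays and again at -0.18.
The 7 clusters with a profile of their own spanned -0.61 to 0.15. The most negative value was at Snord116l9, with 6.17 and 6.75 in wild type and 6.15 and 5.54 in Adar2-/- (log2 fold change -0.61, SE 0.27, adjusted p = 0.835). It is the 1 cluster of the array whose groups did not overlap, by a gap of 0.02 between the nearest arrays. Gm26365 followed at -0.43 (11.60 and 12.28 against 11.78 and 11.24, adjusted p = 0.856). Gm25615 came next at -0.20, with the widest spread of the array within wild type (10.07 and 11.18). The 1 positive value was at Snord116l12, 0.15 (10.28 and 10.90 against 11.00 and 10.48). Gm23862, Gm22131 and Snord116l14 lay between -0.20 and -0.15 with signals of 13.13 to 13.68, close to the highest signal of the table, 13.86.
Probes of the array can detect several copies, so the 9 clusters are not 9 independent measurements.

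Within each genotype, the arrays had the same order in all 9 clusters of the Snord116 array. Wild type 2 read above wild type 1 in 9 of 9 clusters (median difference 0.20), and Adar2-/- 2 read below Adar2-/- 1 in 9 of 9 (median difference -0.42). Other C/D box snoRNAs, those with a Snord symbol outside the region, showed the same order of arrays in 51 of 64 clusters for wild type (median 0.35) and in 55 of 64 for Adar2-/- (median -0.23). For the H/ACA box snoRNAs with a Snora symbol it was 27 of 36 and 29 of 36. Over all clusters the counts were 16671 and 17265 of 33793, or 49.3% and 51.1%. Of the 54 clusters outside the region at or above the median level of the Snord116 array, 38 had wild type 2 above wild type 1, 10 had Adar2-/- 2 below Adar2-/- 1, and 26 had a log2 fold change below 0 (median 0.0025). The part of signal level in the pattern of the Snord116 array was not tested. The median log2 fold change was -0.18 for the Snord116 array, 0.15 for Snord symbols outside the region and 0.30 for Snora symbols, and the medians were not tested against each other. Without Adar2-/- array 2, the median of the Snord116 array was 0.01.

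**Figure D2:**
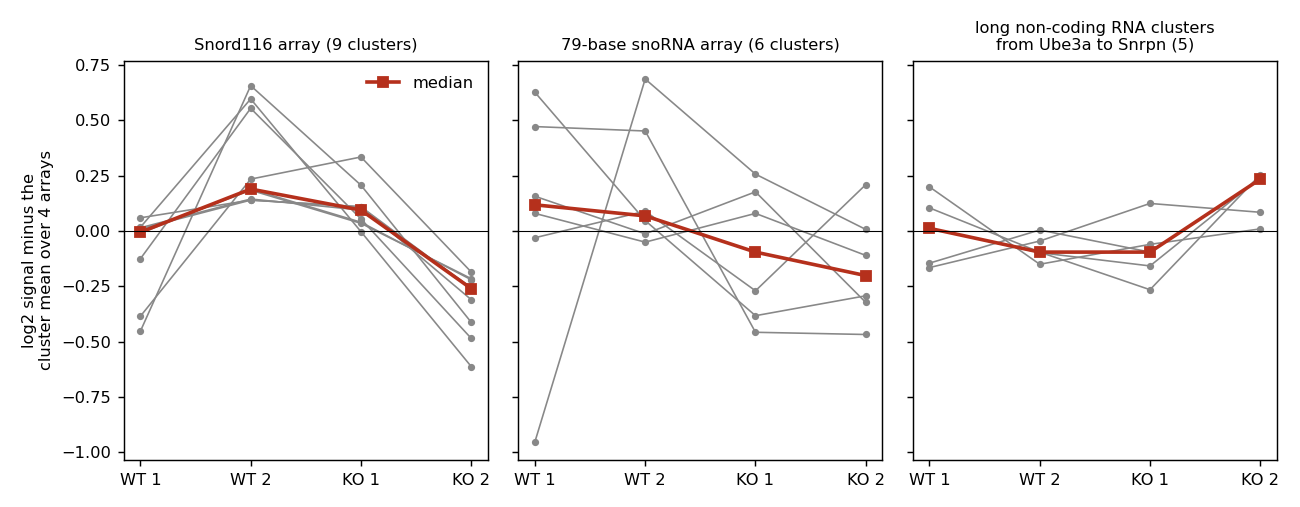
Each grey line joins the 4 arrays of 1 cluster, as log2 signal minus that cluster's mean over the arrays (y axis), and the red line is the median of the class. WT is wild type and KO is Adar2-/-. In the Snord116 array the median falls from 0.19 on wild type 2 to -0.26 on Adar2-/- 2, whereas the median of the 5 long non-coding RNA clusters is highest on Adar2-/- 2, at 0.24, although Ipw-1 is highest on Adar2-/- 1 and Ipw-2 on wild type 1.

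The 79-base snoRNA array lies between the Ube3a antisense transcript and Snord116, where RefSeq lists a series of 79-base snoRNA genes. 2 of its 6 clusters passed the test with lower values in Adar2-/-, Gm26096 and, with 3 of its 4 arrays at background, Gm25934. The other 4 did not pass. The median over the 6 clusters was -0.10, and with each array left out it ran from -0.26 (without Adar2-/- 1) to -0.12 (without Adar2-/- 2), with -0.25 without wild type 1 and -0.16 without wild type 2.
Gm26096 (chr7:59373844-59373922) and Gm26499 (chr7:59377582-59377660) share 1 profile, with 5.86 and 5.84 in wild type and 4.93 and 4.92 in Adar2-/-. The groups are 0.91 apart at their nearest arrays and each spans at most 0.02. The log2 fold change was -0.93 (SE 0.10, 95% interval -1.17 to -0.68), or 1.90-fold lower, with an adjusted p = 0.770 from limma. By unadjusted p this profile ranked 4 in the table of 33793.
Gm25934 (chr7:59351409-59351487) read 4.86 and 4.28 in wild type and 3.85 and 3.94 in Adar2-/-, a log2 fold change of -0.68 (SE 0.20, adjusted p = 0.834). Both Adar2-/- values and wild type 2 lie in the range of Y-linked genes in these females, 3.49 to 4.40, which serves as a background level, so 3 of its 4 arrays are at background and the size of its difference is uncertain. Without Adar2-/- array 1 or array 2 it was no longer called, with log2 fold changes of -0.63 and -0.72. Without wild type 1 the log2 fold change was -0.39, and without wild type 2 it was -0.97.
The remaining 4 clusters of this array were not called. Gm25121 was at -0.14 (7.64 and 7.47 against 7.66 and 7.16), Gm25870 at -0.06 (7.46 and 7.58 against 7.22 and 7.70) and the unnamed cluster 17491505 at -0.03 (7.78 and 7.65 against 7.78 and 7.59). Gm25156 was at 0.27, but its wild-type arrays were 5.53 and 7.17, further apart than in any other cluster of the region. Without wild type 1 it was called lower (-0.56), and without wild type 2 it was called higher (1.09). The groups overlapped in each of them.

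**Figure D3:**
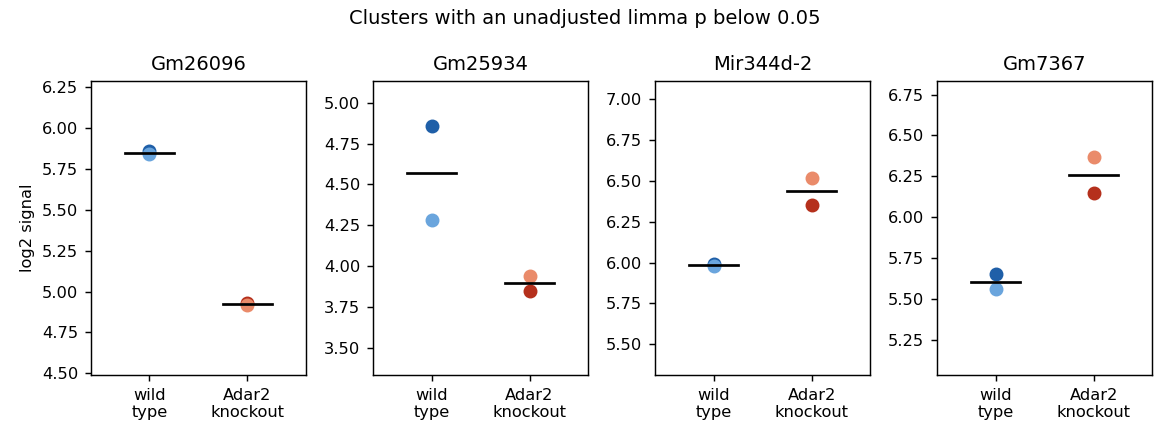
Log2 signal (y axis) on the 4 arrays for the 4 clusters with an unadjusted limma p below 0.05, with wild-type arrays in blue, Adar2-/- arrays in red and a bar at each genotype mean. Each panel spans the same height, and Gm26096 shows the largest distance, from 5.85 in wild type to 4.92 in Adar2-/-.

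The 5 other snoRNAs of the region, so classed by their description on the array, had no call. RefSeq lists Gm25499 and Gm22373 among them as pseudogenes. Snord64, a C/D box snoRNA close to Snrpn, read 6.18 and 6.06 in wild type and 5.94 and 6.12 in Adar2-/- (log2 fold change -0.09, SE 0.12). The largest differences were at Gm25499 and LOC115486845. Gm25499 was at 0.48 with groups that did not overlap (6.40 and 5.85 against 6.78 and 6.43, adjusted p = 0.835), and without wild type 1 it was called at 0.76. LOC115486845, a snoRNA gene in RefSeq, was at -0.46 with overlapping groups (5.91 and 5.53 against 4.97 and 5.56, adjusted p = 0.841), and without Adar2-/- 2 it was called at -0.75. Gm22496 and Gm22373 were at -0.07 and 0.11. No cluster of the region names Snord107.

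The long transcripts of the region did not pass the test in any of 16 clusters, which are 10 long non-coding RNAs, 5 protein-coding genes and the cluster over Ube3a. On the plus strand, the cluster at chr7:59228750-59306727 starts at the same base as RefSeq Ube3a and covers 95.0% of its span, though the file gives it the symbol of the antisense gene A230073K19Rik. Its signals were 8.80 and 8.89 in wild type and 8.77 and 9.09 in Adar2-/- (log2 fold change 0.09, SE 0.14, 95% interval -0.26 to 0.43). The sign of that value rests on 1 array, and without Adar2-/- array 2 it was -0.08.
The minus-strand cluster A230073K19Rik, antisense to Ube3a, read 9.31 and 9.11 against 8.94 and 9.46, a log2 fold change of -0.01 (SE 0.19). C230091D08Rik and D7Ertd715e, both listed by RefSeq as older names of Snhg14, the host transcript of the snoRNAs and of the Ube3a antisense RNA, were at 0.14 and 0.09. Their signals were 8.84 and 8.99 against 8.89 and 9.22, and 10.77 and 10.66 against 10.60 and 11.00. Ipw, a paternally expressed non-coding RNA, has 2 clusters, Ipw-1 and Ipw-2. Ipw-1, at chr7:59619158-59676485, was at 0.21, the largest value of the long non-coding RNAs, with groups that did not overlap (10.62 and 10.74 against 10.91 and 10.87, SE 0.11, adjusted p = 0.843). It was called higher when the variance prior followed the intensity. Ipw-2 was at -0.05 (10.32 and 9.97 against 10.06 and 10.13).
In 4 of these 5 clusters, which run from the strand opposite Ube3a to Snrpn, Adar2-/- 2 read above Adar2-/- 1, by a median of 0.33 over the 5, the opposite order to that of the Snord116 array that lies among them. The remaining 5 long non-coding RNA clusters, upstream of Snrpn, were A230006K03Rik (2 clusters, 0.02 and 0.06), B230209E15Rik (-0.09), A230057D06Rik (0.11) and A330076H08Rik (0.20, 9.48 and 9.64 against 9.62 and 9.91). The groups overlapped in each of them.

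Among the protein-coding genes, no member was called, and the median log2 fold change was 0.12, or 0.055 without wild type 2 or without Adar2-/- 2. Snrpn, which encodes the spliceosomal protein SmN, read 7.70 and 7.49 in wild type and 7.37 and 7.67 in Adar2-/- (log2 fold change -0.07, SE 0.15), and the sign turned when wild type 1 (0.03) or Adar2-/- 1 (0.08) was left out. Ndn, a MAGE-family protein of postmitotic neurons, read 9.80 and 9.86 against 9.80 and 9.67 (-0.10, SE 0.11, 95% interval -0.36 to 0.17), with -0.03 without Adar2-/- 2 and -0.16 without Adar2-/- 1. Magel2, a MAGE-family regulator of ubiquitin ligases and endosomal sorting, read 6.28 and 6.29 against 6.34 and 6.47 (0.12, SE 0.11, and 0.055 without Adar2-/- 2).
Mkrn3, a zinc finger ubiquitin ligase known for restraining the onset of puberty, read 5.92 and 5.59 against 6.06 and 5.89 (0.22, SE 0.15, adjusted p = 0.868), and its log2 fold change ran from 0.055 without wild type 2 to 0.385 without wild type 1. Peg12, also called Frat3, read 6.70 and 6.75 against 7.00 and 6.86 (0.20, SE 0.11, adjusted p = 0.844), and its log2 fold change ran from 0.135 without Adar2-/- 1 to 0.275 without Adar2-/- 2. The groups did not overlap for Magel2 and Peg12, with Adar2-/- above in both, and overlapped for the others. The intervals of the 5 genes reach from -0.44 to 0.59, so a change of 1 log2 unit in either direction lies outside them.

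**Figure D4:**
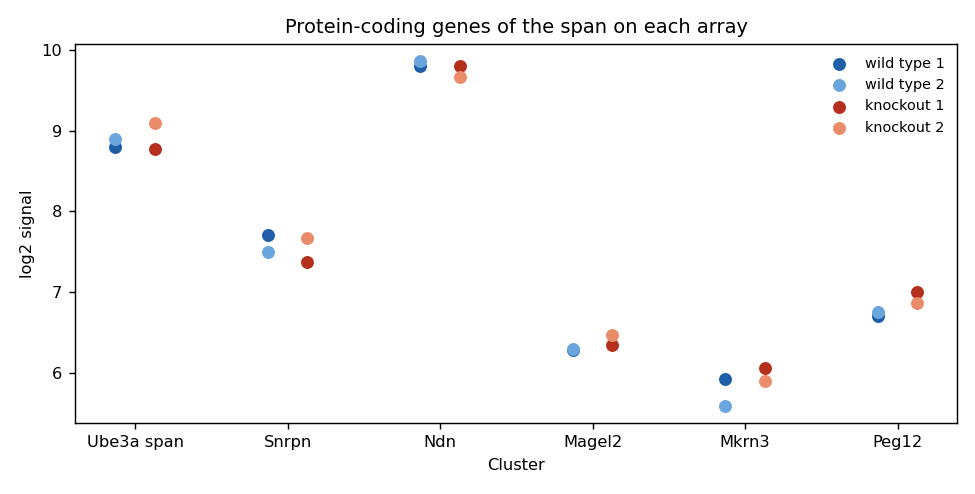
Log2 signal (y axis) on each array for the cluster over Ube3a and the 5 protein-coding genes, with wild-type arrays in blue and Adar2-/- arrays in red. The genotypes lie within 0.22 of each other in the mean for each gene, and levels are not comparable between genes because each has its own probes.

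Of the 19 microRNA precursor clusters, 1 was called, 13 had a log2 fold change above 0 and 6 below, and the median was 0.08. Precursors with a Mir symbol outside the region had a median of 0.05, and 50 of 579 of them passed an unadjusted p below 0.05.
Mir344d-2 read 5.99 and 5.98 in wild type and 6.35 and 6.52 in Adar2-/-. Both Adar2-/- arrays lay above both wild-type arrays. The log2 fold change was 0.45 (SE 0.11, 95% interval 0.17 to 0.73), or 1.37-fold, with an adjusted p = 0.834 from limma.
The clusters of Mir344d-1 and Mir344d-3, whose hairpins hold the same mature miR-344d-3p, did not pass the test. Mir344d-1 was at 0.04 (4.12 and 4.48 against 4.41 and 4.26) and Mir344d-3 at 0.13 (4.28 and 3.86 against 3.66 and 4.74), with overlapping groups. 5 of their 8 values lie inside the range of the Y-linked genes.
Mir344e, which shares the 3p seed of Mir344d, was at -0.14 (4.75 and 5.24 against 4.99 and 4.71), and Mir344h-1, whose 2 rows share a profile, was at 0.17 (4.59 and 4.24 against 4.85 and 4.31). Mir344 and Mir344-2 carry the same mature pair and were at 0.04 and 0.09, with signals of 6.91 to 7.04 and 6.73 to 7.11. Mir344c, which shares their 3p seed, was at -0.02 (5.92 and 6.11 against 5.96 and 6.03).
Mir344b was at -0.21 with groups that did not overlap, but at background level (3.94 and 3.91 against 3.74 and 3.69, adjusted p = 0.835). It was called lower under quantile and cyclic loess normalization and with pooled variance. Mir344f was at 0.40 with overlapping groups (5.33 and 4.59 against 5.58 and 5.14), and Mir344i at 0.20 with Adar2-/- above (6.59 and 6.65 against 6.95 and 6.70).
8 further precursors without a RefSeq match spanned -0.14 to 0.34. Among them, clusters 17491695 (6.46 on both wild-type arrays against 6.79 and 6.64) and 17491722 (6.61 and 6.83 against 6.89 and 7.08) lay above wild type on both Adar2-/- arrays. Cluster 17491695 was called higher without Adar2-/- 2 (0.33) and when only clusters above the median signal were tested (0.26), and cluster 17491693, at -0.14, was called lower without wild type 2 (-0.45). In all, 7 of the 62 clusters had a mean signal at or below 4.40, and 5 of them were microRNA precursors.

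**Figure D5:**
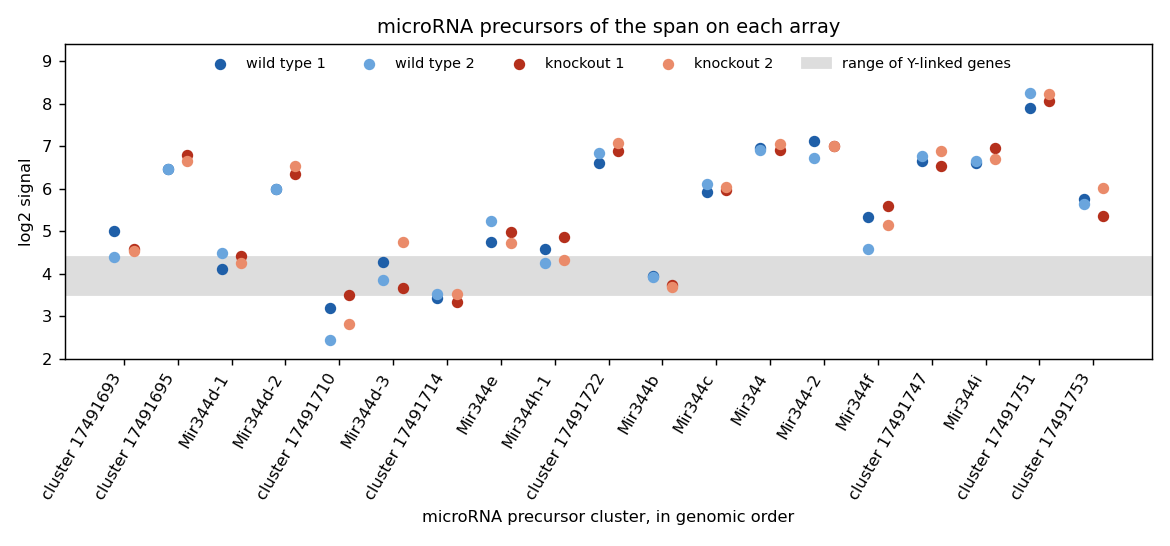
Log2 signal (y axis) of the 19 microRNA precursor clusters in genomic order, with wild-type arrays in blue, Adar2-/- arrays in red and the range of the 4 Y-linked genes, 3.49 to 4.40, in grey. Mir344d-2 is 1 of 4 clusters with both red points above both blue ones, beside Mir344i and clusters 17491695 and 17491722, and Mir344d-1, Mir344d-3 and Mir344b lie in or close to the grey band.

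The largest rise of the region was at Gm7367 (chr7:60155429-60156829, plus strand), a transcribed pseudogene of 1110014K08Rik upstream of the Snrpn cluster and on the opposite strand. It read 5.65 and 5.56 in wild type and 6.15 and 6.37 in Adar2-/-, and the file does not mark it as able to cross-hybridize. The log2 fold change was 0.66 (SE 0.12, 95% interval 0.35 to 0.96), or 1.57-fold, with an adjusted p = 0.834 from limma. The 6 other clusters outside the classes above, among them the pseudogene Atp5l-ps1, lay between -0.22 and 0.29 and did not pass the test. Atp5l-ps1 was called higher without wild type 2 (0.63).

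Genes that work with the region were read from lists. Of clusters that carry the symbol of a core protein of C/D box snoRNPs, 1 of 7 passed. It bears the symbol Nop56 but covers only 70 bases inside that gene (chr2:130277697-130277766), so it does not measure the gene as a whole. It read 4.64 and 4.58 against 4.14 and 3.79 (log2 fold change -0.65, SE 0.15, adjusted p = 0.834), and both Adar2-/- values lie in the range of the Y-linked genes. The cluster over the whole Nop56 gene was at 0.03 (8.94 and 8.93 against 8.95 and 8.97), and a cluster of 133 bases inside it was at 0.17. The methyltransferase Fbl was at -0.12 (7.70 and 7.79 against 7.78 and 7.48), and Nop58 at 0.05 (7.25 and 7.11 against 7.12 and 7.34).
Of binding partners and genes described as downstream of the region, 0 of 9 clusters passed. Htr2c read 8.63 and 8.90 in wild type and 8.48 and 8.80 in Adar2-/- (log2 fold change -0.13, SE 0.16), with overlapping groups. The prohormone convertases Pcsk1 and Pcsk2 were at -0.07 and -0.26. Of the 9 clusters, 3 were above 0 and 6 below, with a median of -0.06. The highest, at 0.345, was a cluster of 757 bases with the symbol Trim27, and the longer Trim27 cluster was at -0.145. The groups did not overlap in 4 of 7 clusters of the snoRNP list (57.1%) and in 6 of 9 of the partner list (66.7%), beside 34.1% of all clusters. Of 36 imprinted genes elsewhere in the genome, such as Peg3, Dlk1, Meg3 and Grb10, 0 of 46 clusters passed, and the median was 0.01.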

How the data were processed

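Whole-brain total RNA was prepared for whole-transcript arrays and measured at a core facility. In 1 table, the authors deposited a normalized log2 signal per array for 33793 clusters. The submitters' processing notes name Affymetrix Expression Console and RMA, without roles or versions. Further columns with the authors' own log2 ratio, fold change and p-value were not used. The array medians lay between 6.03 and 6.09. Arrays give no read depth, and their number limits the precision.

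The deposited log2 values were tested in R 4.3.3 by lmFit and eBayes of limma 3.58.1 (two-sided, genotype as the only term, no filter), with Benjamini-Hochberg adjustment over all clusters. The prior SD was 0.125 with 3.79 prior degrees of freedom. The scripts were tested on simulated data. Clusters were matched to RefSeq genes of GRCm38.p6 by position, for 73 of 93 rows. The overlap had to be at least 60% of the longer span, and strand was not compared. Members, classes and gene lists were chosen with earlier results of these data known. Named were Adarb1, all protein-coding, long non-coding and Mir344 clusters, the called and most extreme snoRNA clusters, and called members of the pathway lists with Htr2c, Fbl, Nop56 and Nop58. Pcsk1, Pcsk2, Trim27 and the tissue marker genes were named after their values were seen. The list of genes flanking the region is not reported here. The alternatives were 3 normalizations, 2 filters, a replicate block, rows counted separately, 3 variance models and leaving out each array.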

Additional observations from a re-analysis of the deposited data

How the results depend on the processing

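The count of 4 clusters at an unadjusted limma p below 0.05 was 4 to 6 under the other normalizations and variance models. It was 2 of 42 with clusters above the median signal only, 1 of 26 without clusters that can cross-hybridize, and 4 to 7 when each array was left out, with 7 reached without wild type 2. The labels do not say whether same-numbered arrays are pairs. The deviations of same-numbered arrays correlated at r = 0.0516 across clusters, which with 2 possible pairs cannot decide it. With the replicate number as a block the count was 8, with Gm25499, Mir344f and clusters 17491691 and 17491710 added, all higher. Gm26096, Gm7367 and Mir344d-2 were called in each fit that held them, and the count at an adjusted p below 0.05 was 0 throughout. Gm25934 was not called without variance shrinkage or without either Adar2-/- array. The filter on signal left out Gm26096, Gm25934 and Gm7367. The filter on cross-hybridizing left out Gm26096, Gm25934 and Mir344d-2. The median log2 fold change of the region was -0.10 with every row counted separately, where 29 repeated rows of the Snord116 array enter, and the count of calls was 5. That of the protein-coding genes was 0.0225 among 4 genes above the median signal. With each array left out, the median of the Snord116 array, a class formed after seeing the data, ran from -0.34 to 0.01, the Ube3a cluster from -0.075 to 0.245, and Snrpn from -0.225 to 0.075. The cause was not tested. No row names Snord115, so its planned median was not run. With lone arrays, that array is assumed to vary like the other genotype.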
